A study of Mus musculus with 120 samples.

Results

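The cortex of 26-week-old mice with an expanded ataxin-1 gene was compared with and without a change in the nuclear localization signal of the expanded protein. The libraries were chosen by their labels, as the 4 Cortex 175QK772T and the 4 Cortex 175Q libraries of 26 weeks, 8 of the 120 libraries of the series. All mice were C57BL/6J. The 175Q mice carried 1 Atxn1 allele with the expanded repeat and 1 allele with the normal 2Q repeat (Atxn1 175Q/2Q), and the 175QK772T mice carried the same expanded allele with K772T added beside 1 normal allele (Atxn1 175QK772T/2Q). Each group had 2 females and 2 males, 1 cortex library was made per mouse, and the same animals also gave 4 other brain regions. WT mice of the same age entered for the shared estimate of spread and as the reference level. The study sampled 5 brain regions of WT, 175Q and 175QK772T mice at 10 and at 26 weeks. The comparison asks which cortical transcripts of the 175Q mouse depend on the nuclear localization signal.

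Spinocerebellar ataxia type 1 is an inherited neurodegenerative disease caused by a lengthened CAG repeat that codes for glutamines in ataxin-1. Ataxin-1 binds the transcriptional repressor Capicua, and the disease protein is toxic mainly in the nucleus, to which a short basic signal near the end of the protein directs it. The knock-in alleles lie in the mouse gene itself, so the protein is made wherever Atxn1 is normally active, in neurons and glia alike. In the cortex, projection neurons of separate layers use glutamate, local interneurons use GABA, and both switch on immediate early genes within minutes of activity.

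The DNA that codes for the signal is shown because the genotypes differ within it. It lies in exon 8 of 8 of Atxn1 (ENSMUSG00000046876) at chr13:45557178-45557204, minus strand, in GRCm38 with GENCODE M21 models, and was found in 3 of 3 coding transcripts. The capitals mark the single lysine codon of this stretch, taken as the residue that K772T replaces by threonine. The codon was found by its neighbouring amino acids, and its residue number was not matched. This is the reference sequence; the changed allele was not read from the libraries.
Atxn1 nuclear localization signal: acagccacgaggAAGaggaggtggtcg

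The 8 libraries held 28.03 to 48.51 M counted read pairs, and mitochondrial transcripts took 5.18 to 5.98% of them. On a scale common to 3 regions of these mice, Tbr1, a cortical transcription factor, was at 68.96 to 108.5 CPM (counts scaled to a common library size) in cortex against 37.96 to 59.91 in hippocampus and 5.919 to 66.37 in striatum. The dentate gene C1ql2 was at 1.31 CPM or less and the striatal receptor gene Drd1 at 8.74 or less in every cortex library, so the cortical label held. WT replicate 1 stood apart: Slc17a7 was at 267 CPM there against 1073 to 1104 in the other WT mice, Ttr was at 2568, and this library, labelled female, held both Xist (289 CPM) and the Y-linked Ddx3y (70.1 CPM). It was left out, which leaves 3 WT mice and 11 libraries in the fit. Ttr, the main transcript of the choroid plexus, was at 607 CPM in 175Q replicate 1, at 6.51 or less in the other 175Q mice and at 3.43 to 88.6 in the 175QK772T mice. Mouse numbers of the 175Q and the 175QK772T mice come from separate runs, WT mice fall in both, and the labels name no litters, so mutant genotype and litter cannot be told apart. Sample descriptions of all 8 mutant libraries give a shorter repeat than the 175Q and 175QK772T of the titles and the genotype field, so the repeat length carried by these mice is not settled by the labels.

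Atxn1 was read at a slightly higher mean level in 175QK772T than in 175Q, and whether it passed depended on the fit. It was at 117, 122, 134 and 129 CPM in the 175QK772T mice and at 109, 104.5, 120.5 and 115 in the 175Q mice, and the ranges overlap. The log2 fold change of 175QK772T over 175Q was 0.16 ± 0.06 (SE), which did not pass (adjusted p = 0.0523, edgeR quasi-likelihood test). It passed in some alternative fits, among them DESeq2, RLE scaling and the mutant libraries alone. WT mice were at 118, 106 and 107 CPM. Counts per gene do not separate the alleles, so this value checks the amount of Atxn1 RNA and not the genotype.

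Across the transcriptome, 4738 of 20239 genes tested passed an adjusted p of 0.05 in edgeR's quasi-likelihood test with a term for sex. This is 23.4% of the genes. Of these, 2602 rose in 175QK772T (12.9%) and 2136 fell (10.6%). Most changes were small: the median log2 fold change was 0.32 among those that rose and -0.26 among those that fell, and 441 rose and 326 fell by at least 1.5-fold. At 2-fold or more, 144 rose and 130 fell. The values of the 2 mutant groups did not overlap for 3652 of the 4738 called genes, against 22.6% of all genes tested. The median mean level was 39.9 CPM for genes that rose and 28.2 CPM for those that fell, against 11.4 CPM for all genes tested. When WT replicate 1 was put into the fit the count dropped to 688 (381 rose, 307 fell), and with the 8 mutant libraries alone it was 4961. Within 10 Mb of Atxn1, where linked sequence and K772T cannot be told apart, 52 of 178 genes tested passed (29.2%).

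**Figure D1:**
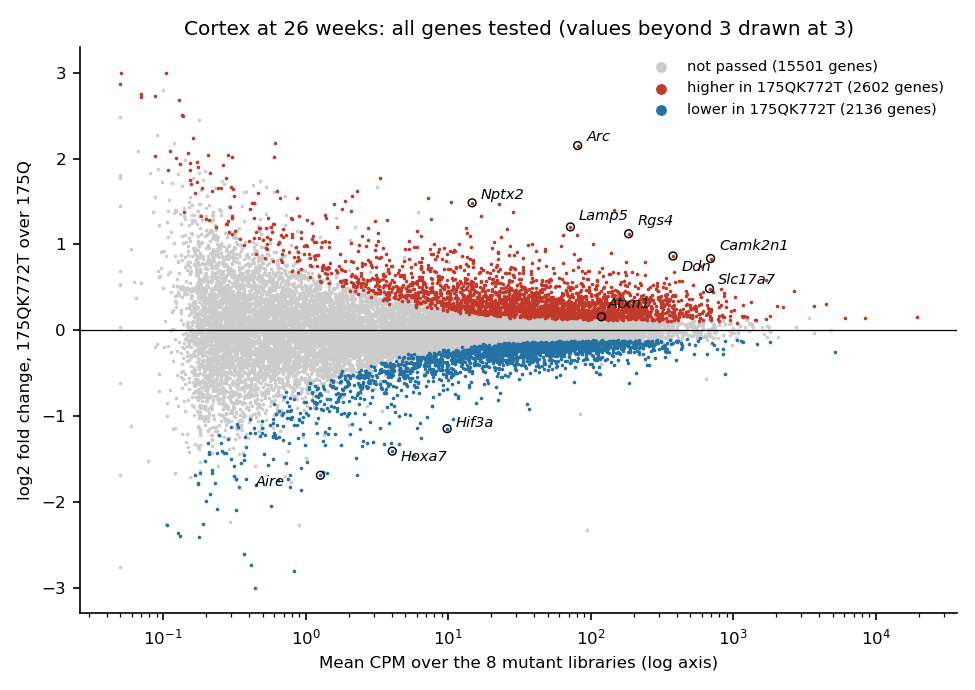
Log2 fold change of 175QK772T over 175Q against mean CPM over the 8 mutant libraries (log axis), 1 point per gene tested; 2602 genes were called higher (red) and 2136 lower (blue). The labelled genes are described in the text; values beyond 3 are drawn at 3, and Arc stands highest among the abundant genes.

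The 10 called genes of smallest adjusted p all rose, by 1.56 to 2.30-fold. Camk2n1, an inhibitor of the synaptic kinase CaMKII (chr4:138454314-138460123, plus strand, GRCm38), was at 882, 938, 836 and 897 CPM in 175QK772T and at 498, 483, 520 and 491 in 175Q. Its log2 fold change was 0.83 ± 0.04 (adjusted p = 1.28e-09), and WT mice were at 2053, 2148 and 2259 CPM. Arpp19, a phosphatase regulator, was at 182, 179, 185 and 175.5 CPM against 100.2, 104, 94.7 and 89.4, a log2 fold change of 0.90 ± 0.04. For both genes every 175QK772T mouse lay above every 175Q mouse and below every WT mouse.

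Rgs4, which shortens signalling by G protein-coupled receptors, was at 248, 269.8, 254 and 240.1 CPM in 175QK772T, at 111, 117, 124 and 111.8 in 175Q and at 529, 418 and 513 in WT (1.124 ± 0.06). Ddn, which codes for the dendritic protein dendrin, was at 496, 472, 492 and 490.1 CPM against 282, 245, 289.9 and 254.5 (0.86 ± 0.05). Cck, a neuropeptide gene, was at 165.5, 139, 125 and 125.5 CPM against 69.9, 60.7, 74.9 and 71.1 (1.00 ± 0.06), and WT mice were at 176, 204 and 183. The 2 females of 175QK772T had the highest Cck levels of the mutants. The other 5 of the 10 were Lamp5, Inka2, Rph3a, Olfm1 and Camkk2, with log2 fold changes of 0.64 to 1.20. In all 10 the 175QK772T mean lay between the 175Q and the WT mean.

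The 15 largest rises, taken among genes of at least 1 CPM whose groups do not overlap, ran from 2.27 to 4.44-fold. Arc, an activity-induced gene that acts at synapses (chr15:74669083-74672570, minus strand, GRCm38), was at 215, 198, 68.2 and 54.7 CPM in 175QK772T and at 16.8, 22.3, 19.1 and 53.4 in 175Q. The log2 fold change was 2.15 ± 0.34 (adjusted p = 0.000202). The lowest 175QK772T mouse and the highest 175Q mouse differed by little, and the 2 female 175QK772T mice lay far above the 2 males. Nptx2, a secreted pentraxin that gathers glutamate receptors at synapses on interneurons, was at 21.9, 31.2, 18.6 and 15.1 CPM against 6.90, 6.11, 9.96 and 7.88, with 54.1, 50.6 and 36.6 in WT. Its log2 fold change was 1.48 ± 0.14. Ier5l and Tnfrsf25, a death-domain receptor, were rarer (log2 fold changes of 1.77 ± 0.15 and 1.62 ± 0.21): Ier5l was at 3.65 to 6.24 CPM in 175QK772T and 0.992 to 1.95 in 175Q. The others given here were Cox6a2, Trpv6, Ankrd63, Tm6sf2, Fosl2, Cbln4, Lamp5, Ptger1, Epop and Robo3. In 14 of the 15 the 175QK772T mean lay between 175Q and WT; the exception was Ptger1, a prostaglandin receptor gene, at 1.74 to 2.85 CPM in 175QK772T and 1.49 to 1.89 in WT.

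**Figure D2:**
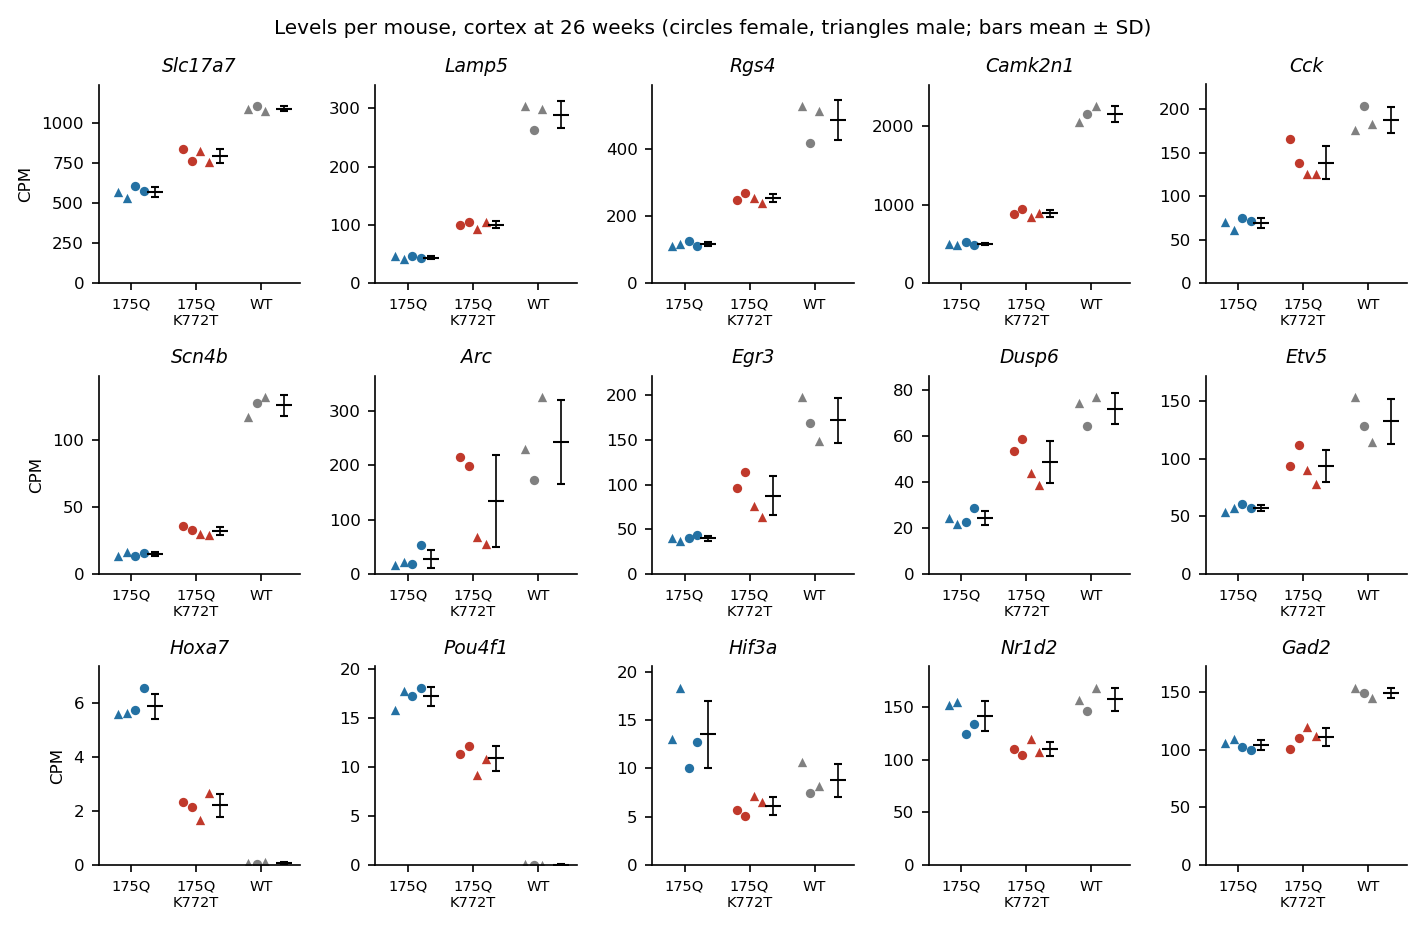
CPM per mouse of 15 genes in 175Q (blue), 175QK772T (red) and WT (grey, without replicate 1), with circles for females, triangles for males and bars for the mean ± SD. In the first 10 panels every 175QK772T mouse lies above every 175Q mouse, in the next 4 (Hoxa7 to Nr1d2) every one lies below, and Gad2 overlaps.

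Most markers of cortical excitatory neurons rose. Of 12 tested, 9 rose and none fell, with a median log2 fold change of 0.41 against -0.01 over all genes tested. Over all genes tested 12.9% rose and 10.6% fell, the shares against which each list count below is read. Slc17a7, the vesicular glutamate transporter of cortical projection neurons, was at 837, 759, 826 and 755 CPM in 175QK772T, 565, 529, 604 and 573 in 175Q and 1087, 1106 and 1074 in WT (0.48 ± 0.04). Tbr1, a transcription factor of deep-layer neurons, was at 100.4, 100.4, 106 and 102 CPM against 70.6, 70.7, 73.9 and 67.2 (0.53 ± 0.04). Nrgn, a calmodulin-binding protein of dendrites, and Camk2a rose as well, by 0.75 ± 0.07 and 0.58 ± 0.04. In this list 3 markers did not pass, and the lowest log2 fold change was -0.15. With 1 library left out, 8 to 9 rose and 0 to 1 fell. In bulk tissue, fewer cells of a type and less RNA per cell cannot be told apart.

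The rises covered upper and deep layers. Of the markers of layers 2 to 4, 13 of 15 rose and none fell (median 0.47). Lamp5, a vesicle protein of upper-layer neurons and of some interneurons, was at 99.4, 105, 92.8 and 104 CPM in 175QK772T, 45.8, 40.6, 45.7 and 42.3 in 175Q and 304, 263 and 299.7 in WT (1.20 ± 0.06). Rorb, the receptor-like factor of layer 4, was at 36.3 to 42.2 CPM against 28.8 to 30.3, with no overlap. Of the layer 5 markers 12 of 15 rose (median 0.33), among them Fezf2, which specifies subcortically projecting neurons (23.7 to 26.96 against 14.5 to 19.6 CPM). Of the layer 6 markers 8 of 15 rose (median 0.35), led by Cplx3, a complexin found in subplate-derived neurons: 10.3, 9.37, 7.55 and 8.23 CPM against 3.17, 4.87, 4.21 and 4.13 (1.101 ± 0.11). None of these layer markers fell. With WT replicate 1 in the fit, 2, 3 and 0 of the 3 layer lists and 0 of the excitatory markers passed. The medians in that fit were 0.47, 0.33, 0.34 and 0.41.

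Interneuron genes moved the same way. Of 22 GABAergic genes 15 rose and 1 fell (median 0.32; 1 rose with WT replicate 1 in the fit). Npy was at 38.1, 31.5, 30.4 and 33.8 CPM in 175QK772T and 22.1, 16.2, 22.8 and 20.6 in 175Q (0.71 ± 0.09). Sst was at 76.3 to 104 CPM against 47.9 to 69.3 (0.56 ± 0.08). Pvalb, the calcium buffer of fast-spiking cells, was at 37.9 to 54.9 CPM against 26.9 to 30.4 (0.69 ± 0.09). For these 3 subtype markers the groups do not overlap, as for 3652 of the 4738 called genes and 22.6% of all genes tested. Of the enzymes that make GABA, Gad1 rose (243.5 to 254 against 187.5 to 204 CPM; 0.36 ± 0.04) and Gad2 did not pass (101 to 120 against 99.8 to 109). The member that fell was Dlx1, a homeobox factor of interneuron lineages, at 23.7 to 30.8 CPM against 29.4 to 36.4, and WT mice were lower still, at 18.9 to 20.4.

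Secreted neuronal signals followed. Of 25 neuropeptide and neurotrophin genes 16 rose and 1 fell (median 0.56), and 7 rose with WT replicate 1 in the fit, more than in any other list. Pdyn, the dynorphin precursor, was at 8.55, 7.503, 7.73 and 8.30 CPM against 4.39, 3.24, 4.63 and 4.06, with 19.3 to 26.6 in WT. Vgf, an activity-dependent peptide precursor, was at 133, 147, 95.9 and 102 CPM against 72.4, 56.4, 84.4 and 82.0. The member that fell was Scg5, a chaperone of prohormone convertase, at 210.4 to 225 CPM against 231 to 268 (-0.21 ± 0.04).

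Ion channel and receptor genes rose in large numbers by small amounts. Of 46 potassium channel genes 34 rose and none fell (median 0.28), against 12.9% and 10.6% of all genes tested. Kcnv1, a silent subunit that modifies Kv2 channels, was at 66.8, 69.0, 68.1 and 66.4 CPM against 42.9, 43.4, 40.7 and 36.8 (0.72 ± 0.05), and Kcnip2, a partner of Kv4 channels, rose by 0.78 ± 0.06. Of the classic A-type and delayed rectifier genes, Kcnd2 (80.6 to 91.8 against 76.8 to 87.3 CPM) and Kcna1 (47.01 to 55.5 against 42.9 to 56.9) did not pass and their ranges overlap. Of 29 sodium and calcium channel genes 13 rose and 3 fell, and the share that fell was near the 10.6% of all genes tested. Scn4b, an auxiliary sodium channel subunit, was at 35.4, 32.7, 29.8 and 29.3 CPM against 13.4, 16.6, 13.6 and 15.9 (1.09 ± 0.08), far under the 117 to 132 of WT. The 3 that fell were Scn3a (-0.24 ± 0.05), the sodium channel used most before birth, the leak channel Nalcn (-0.21 ± 0.05) and Scn1a (-0.16 ± 0.05). Scn3a and Nalcn were lowest in WT, at 51.98 to 55.5 and 102 to 111 CPM, while Scn1a in WT (199 to 247 CPM) overlapped both mutants.

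At the synapse, 16 of 21 vesicle genes rose and none fell (median 0.28). Stx1a, a membrane fusion protein, was at 282, 250.4, 244 and 247 CPM against 161, 142, 179.6 and 169 (0.65 ± 0.05), and Cplx2, a complexin, rose by 0.44 ± 0.03. Of 24 glutamate receptor genes 15 rose and none fell (median 0.17). The 4 firmest were Grin2c, an NMDA receptor subunit (0.59 ± 0.06), and the metabotropic receptors Grm3 (0.51 ± 0.05), Grm2 (0.72 ± 0.08) and Grm4 (0.86 ± 0.10). Of 14 GABA receptor genes 8 rose (median 0.17), led by Gabrd, the subunit of extrasynaptic receptors, at 37.4, 35.8, 32.7 and 33.3 CPM against 21.1, 22.2, 23.7 and 22.4. Of 23 calcium signalling genes 15 rose and none fell (median 0.23), among them Camkk2, a kinase upstream of CaMKIV, at 184 to 197 CPM against 113 to 126. With WT replicate 1 in the fit, 3 potassium channel, 5 sodium and calcium channel, 2 vesicle, 3 glutamate receptor, 0 GABA receptor and 3 calcium signalling genes rose.

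Of 19 immediate early genes tested 18 rose, and the median log2 fold change was 1.01 (14 to 19 rose when 1 library was left out). Over all genes tested 12.9% rose and the median was -0.01. Egr3, a zinc finger factor, was at 96.8, 114, 76.3 and 64.3 CPM in 175QK772T and at 39.9, 36.9, 40.4 and 43.7 in 175Q (1.11 ± 0.11), with 149 to 199 in WT. Bdnf, a neurotrophin, was at 16.5, 22.1, 16.7 and 13.6 CPM against 11.4, 9.61, 10.3 and 9.83 (0.75 ± 0.12). For these 2 genes the groups do not overlap, as for 3652 of the 4738 called genes and 22.6% of all genes tested. Fos, the classic activity marker, was at 51.9, 50.96, 17.1 and 15.7 CPM against 6.85, 9.81, 5.59 and 24.1 (1.47 ± 0.42, adjusted p = 0.0166), and 175Q replicate 4 lay above both 175QK772T males. Btg2 did not pass (0.63 ± 0.25).

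The spread among mice was wide for this list and followed individual mice across genes. The summed level of the 19 genes was 1281 and 1329 CPM in the 2 female 175QK772T mice and 705 and 616 in the 2 males. The 175Q mice were at 387 and 414 (males) and 369 and 578 (females), and WT mice at 1595, 1079 and 1613. Groups did not overlap for 7 of the 19 genes, against 22.6% of all genes tested. Split by sex, 2 mice against 2, all 19 were higher in 175QK772T in females (median log2 ratio of means 1.102) and all 19 in males (0.63). With 2 mice of each sex per genotype, sex and individual mice cannot be told apart. With WT replicate 1 in the fit, 1 of the 19 passed, while the median log2 fold change was 1.03.

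**Figure D3:**
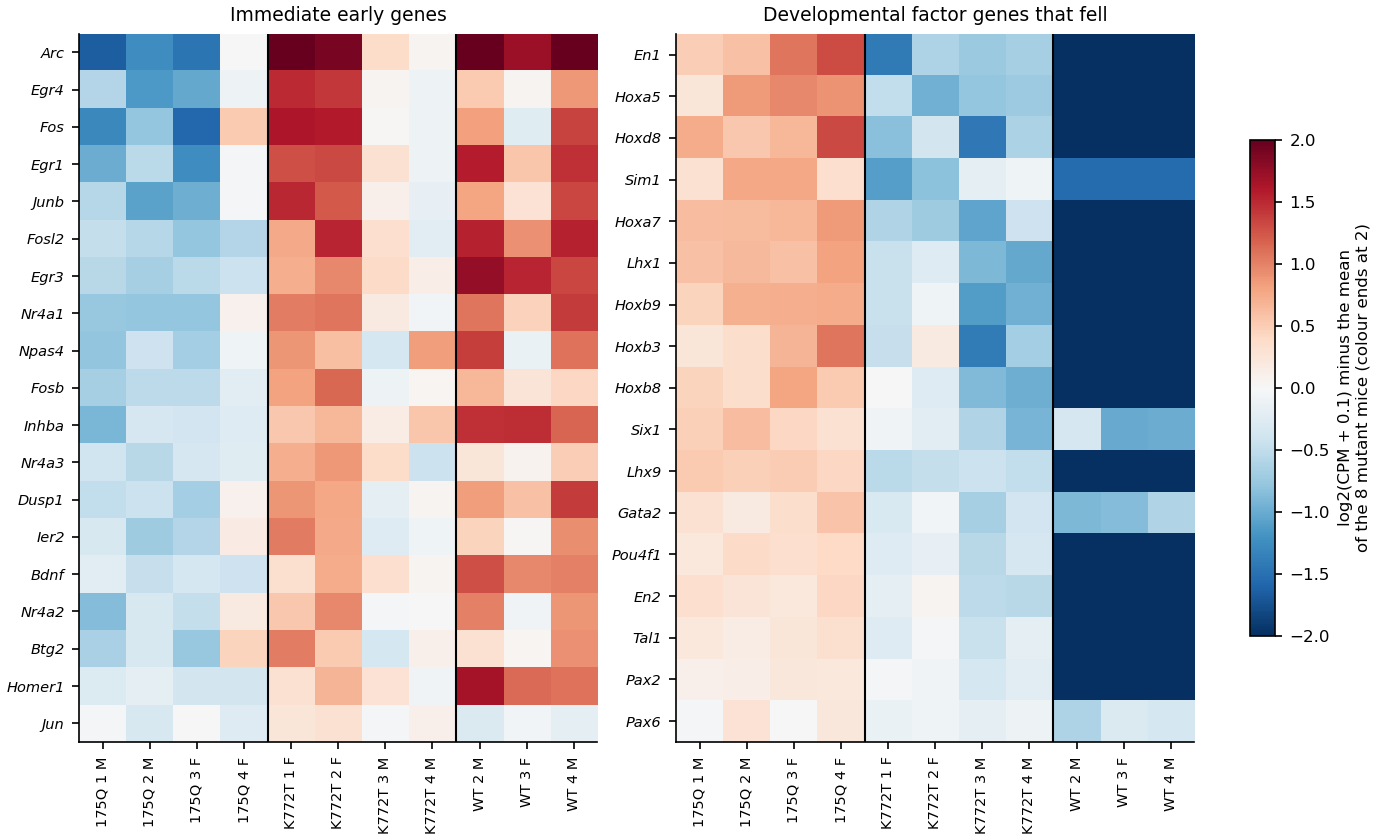
Log2(CPM + 0.1) minus the mean of the 8 mutant mice, per mouse (columns, with sex F or M) and gene (rows), for the 19 immediate early genes and the 17 developmental genes that fell. Red is higher: on the left the 2 female 175QK772T mice are reddest among the mutants, and WT replicates 2 and 4 have higher summed levels. On the right all 4 175QK772T mice are bluer than the 175Q mice, with WT near 0 counts for most rows.

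Of 23 genes tied to ataxin-1 and Capicua 12 rose and none fell (median 0.28), against 12.9% and 10.6% of all genes tested. With WT replicate 1 in the fit, 3 of them rose. Capicua is known to repress Dusp6, Etv4 and Etv5, and all 3 rose. Dusp6, a phosphatase that quenches ERK signalling (chr10:99263231-99267489, plus strand, GRCm38), was at 53.4, 58.8, 43.9 and 38.8 CPM in 175QK772T, 24.5, 21.7, 22.6 and 28.5 in 175Q and 64.1 to 77.0 in WT (1.00 ± 0.10). Etv4, an ETS factor, was at 11.6, 13.5, 9.38 and 11.8 CPM against 5.84, 6.35, 7.05 and 6.79 (0.83 ± 0.09). Etv5 was at 93.98, 111.8, 90.5 and 78.6 CPM against 54.01, 57.3, 60.7 and 57.3 (0.71 ± 0.09). Ccnd1, which codes for cyclin D1, was at 39.7 to 44.4 CPM against 22.5 to 27.4 (0.74 ± 0.07). None of these 4 genes had overlapping groups. Being called favours this, as it holds for 3652 of the 4738 called genes and 22.6% of all genes tested. The partners themselves did not pass: Cic, the gene of Capicua, was at 200.5 to 217 CPM against 191 to 228, and the paralog Atxn1l at 55.9 to 62.99 against 61.3 to 65.04.

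The promoters of these genes were searched because Capicua recognises the octamers TGAATGAA and TGAATGGA. Windows from 250 bases before to 50 after the start came from RefSeq (GRCm38.p6), both strands were read, and 6 of the 12 Capicua-list genes that rose had an entry. TGAATGAA stood in 1 of these 6 and in 114 of 13159 windows of genes tested (0.866%). TGAATGGA stood in none of the 6 and in 0.798% of the windows of genes tested. The hit was in Spred3, an inhibitor of the ERK pathway, at chr7:29168648-29168677 on the minus strand. Spred3 was at 75.7, 85.4, 80.9 and 74.0 CPM in 175QK772T and 65.2, 52.8, 63.4 and 66.3 in 175Q (0.35 ± 0.07).
Spred3 (capitals: the Capicua octamer): cggagcagccttgatttttgTGAATGAAat
Of the immediate early genes that rose, 14 had an entry, and both octamers and TGACGTCA each stood in 1 of the 14 (7.14%). TGAATGGA stood in the Fos window, on the strand opposite to the gene, at chr12:85473820-85473867 (plus strand shown).
Fos (capitals: the Capicua octamer TGAATGGA read on the other strand): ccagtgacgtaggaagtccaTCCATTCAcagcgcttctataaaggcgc
TGACGTCA, the palindrome bound by CREB (2.97% of windows of genes tested), stood in the Dusp1 window, at chr17:26508588-26508635 on the minus strand. Dusp1, whose product switches off MAP kinases, was at 16.2 to 34.02 CPM against 11.5 to 19.7.
Dusp1 (capitals: the CREB palindrome): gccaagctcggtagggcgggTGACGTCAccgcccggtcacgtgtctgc
A match describes letters in these windows only, and over all genes that rose TGACGTCA stood in 2.84%, TGAATGAA in 0.857% and TGAATGGA in 1.02%.

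Among glia, astrocyte and microglia genes rose and mature oligodendrocyte genes mostly did not pass. Of 14 astrocyte markers 10 rose (median 0.24), against 12.9% of all genes tested. Slc1a2, the main glutamate transporter, was at 2820, 3080, 3203 and 3172 CPM in 175QK772T, 2147, 2294, 2360 and 2172 in 175Q and 4068 to 4348 in WT (0.45 ± 0.04). Gfap, the filament protein of reactive astrocytes, did not pass (98.9 to 112.1 against 98.1 to 125 CPM). Of 15 microglia markers 8 rose (median 0.24), led by Fcrls, at 29.98, 30.9, 21.8 and 25.6 CPM against 12.4, 15.8, 20.2 and 16.2 (0.74 ± 0.08), while the homeostatic marker P2ry12 did not pass (43.2 to 45.2 against 39.8 to 43.1 CPM). Of 18 oligodendrocyte and myelin genes 3 rose, a share near the 12.9% of all genes tested, and Mbp had overlapping groups. Of 11 precursor markers 6 rose and 1 fell, and the share that fell was near the 10.6% of all genes tested. The gene that fell was Enpp6, which marks newly forming oligodendrocytes. It was at 6.56, 8.003, 9.30 and 8.23 CPM against 10.3, 14.8, 10.9 and 12.1 (-0.58 ± 0.13). With WT replicate 1 in the fit, 2 astrocyte, 2 microglia, 0 myelin and 1 precursor genes rose.

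Developmental transcription factors made up the clearest set that fell. Of 27 tested 17 fell and none rose, with a median log2 fold change of -0.67 (2 fell with WT replicate 1 in the fit). Over all genes tested 10.6% fell. Hoxa7, which patterns the trunk of the embryo (chr6:52214491-52221854, minus strand, GRCm38), was at 2.34, 2.15, 1.67 and 2.68 CPM in 175QK772T, 5.58, 5.62, 5.75 and 6.57 in 175Q and 0.0203 to 0.109 in WT (-1.41 ± 0.16). Hoxb9 was at 2.59, 3.35, 1.57 and 1.76 CPM against 4.85, 5.84, 5.91 and 5.97 (-1.32 ± 0.18). Lhx1, a LIM factor of spinal and hindbrain neurons, was at 1.94 to 3.37 CPM against 6.10 to 7.15. Pou4f1, a factor of sensory and habenular neurons, was at 11.4, 12.2, 9.22 and 10.8 CPM against 15.9, 17.8, 17.2 and 18.1 (-0.67 ± 0.08). For all 17 genes that fell, the groups do not overlap. Being called favours this, since it holds for 3652 of the 4738 called genes and for 22.6% of all genes tested.

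In WT mice most of these genes were nearly silent. For 13 of the 17 the WT mean was under 0.5 CPM, and the summed level of the 17 was 18.3, 21 and 21.2 CPM. In 175Q it was 149.9, 153, 157 and 169 CPM and in 175QK772T 103.9, 116, 86.9 and 98.1. Both mutants thus lay well above WT. The 17 were chosen for being lower in 175QK772T, so the order of the mutants in these sums follows from the choice. Over all 27 genes tested the sums were 174.1 to 210 CPM in 175QK772T, 238 to 265 in 175Q and 83.6 to 91.4 in WT. The 6 Hox genes among them summed to 20.2, 21.03, 23.5 and 25.5 CPM in 175Q, 10.4, 11.1, 6.31 and 8.18 in 175QK772T and 0.183 or less in WT. The annotation and strand setting of the 26-week counts are not stated, so levels of overlapping or antisense genes in the Hox clusters are uncertain.

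The 15 largest falls, by the same rule as the rises, were all genes of low level (means of 1.27 to 6.43 CPM). Next to Hoxa7, Hoxb9 and Lhx1 they held Hoxd8, Hoxd9, Lbx1 and the non-coding neighbours Six3os1 and Lhx1os. Lbx1, a homeobox factor of spinal interneurons, was at 4.43, 2.70, 2.09 and 3.23 CPM in 175QK772T and 8.80, 8.84, 7.80 and 8.30 in 175Q, and no read was counted in WT. Aire, the autoimmune regulator of the thymus, was at 0.319, 0.370, 0.567 and 1.17 CPM against 2.08, 1.79, 1.92 and 1.93 (-1.69 ± 0.31), with 0.203 or less in WT. Slc6a5, the neuronal glycine transporter, was at 0.824 to 3.00 CPM against 3.37 to 5.07 (-1.30 ± 0.26). A pair of genes of dividing cells also stood here: Bub1b, a mitotic checkpoint kinase (2.76 to 5.42 against 5.48 to 12.1 CPM), and Asf1b, a histone chaperone (0.532 to 0.902 against 1.64 to 2.24 CPM). Gpr50 and Ccer2 were also among them. In 13 the 175QK772T mean lay between 175Q and WT, and in Bub1b and Ccer2 it lay below both.

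Several clock and glucocorticoid response genes fell. Of 22 tested 8 fell and 3 rose (median -0.05), and 4 fell with WT replicate 1 in the fit. Over all genes tested 10.6% fell and 12.9% rose, so the share that rose was near that of all genes. Hif3a, a hypoxia factor induced by glucocorticoids, was at 5.68, 5.07, 7.19 and 6.49 CPM in 175QK772T, 13.1, 18.3, 10.0 and 12.7 in 175Q and 7.47 to 10.7 in WT (-1.15 ± 0.12). Fkbp5, a chaperone of the glucocorticoid receptor, was at 18.4 to 20.97 CPM against 21.8 to 30.2 (-0.33 ± 0.07). Of the clock repressors, Nr1d2 was at 109.9, 103.9, 119 and 107 CPM against 151, 154.2, 124 and 134 (-0.35 ± 0.05) and Per3 at 42.2 to 52.9 against 56.99 to 72.8 (-0.43 ± 0.06). Arntl, the activator that these repressors oppose, rose (44.3 to 53.5 against 34.4 to 44.2 CPM; 0.35 ± 0.07). WT levels of Per3 (94.8 to 110.3 CPM) were above all mutants, those of Nr1d2 (146 to 168 CPM) overlapped 175Q, and the 175QK772T means of Hif3a, Per3 and Nr1d2 did not lie between those of 175Q and WT.

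Of 20 cholesterol synthesis genes 13 rose and 1 fell (median 0.22). Msmo1 was at 90, 84.3, 88.5 and 88.8 CPM against 71.2, 72.0, 65.8 and 66.5 (0.35 ± 0.04), and the exception was Lss, lanosterol synthase, which fell by 0.25 on the log2 scale. Of 20 heat shock and unfolded protein genes 8 rose (4 to 9 when 1 library was left out). Hsph1, a cochaperone of Hsp70, was at 292, 333, 297 and 259 CPM against 197, 213, 216 and 220, and the stress sensor chaperone Hspa5 did not pass (170 to 202 against 173.5 to 193). Of 22 subunits of oxidative phosphorylation 4 rose (0 to 5 with 1 library left out), and 4 of 15 mitochondrially encoded genes rose (1 to 6). Of 5 haemoglobin genes 2 rose (0 to 5 with 1 library left out), and of 19 genes of glial activation and complement 3 rose and 1 fell (1 to 3 and 0 to 1 with 1 library left out; 1 and 0 with no sex term). Of 18 interferon response genes none passed, and 1 had an unadjusted p under 0.05. For the oxidative phosphorylation and the glial activation lists the share that rose was near the 12.9% of all genes tested.

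Lists for tissue next to the cortex are read against the 12.9% of all genes that rose. Of 14 striatal projection neuron genes 6 rose (among them Rasd2, Pdyn, Tac1, Drd1 and Ppp1r1b) and 1 fell (Six3), and the striatal markers Adora2a and Rgs9 did not pass. Of 14 hippocampal genes 6 rose, none of them Prox1 or Zbtb20, and of 12 thalamic and claustral genes 2 rose (0 to 2 with 1 library left out), a share near that of all genes. Of 12 choroid plexus genes 2 fell, with a median of -0.99, and 10 fell with no filter on low counts. Without 175Q replicate 1 none fell, 1 rose and the median turned to 0.42, so the direction rests on that library. The summed level without Ttr was 439.5 CPM there, 193 to 254 in the other 175Q mice and 200.5 to 254 in the 175QK772T mice. None fell either without 175QK772T replicate 2, 3 or 4. Of 15 endothelial and mural genes 2 rose (1 to 2 with 1 library left out), also near the share of all genes, and none of 12 fibroblast or 8 ependymal genes passed.

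**Figure D4:**
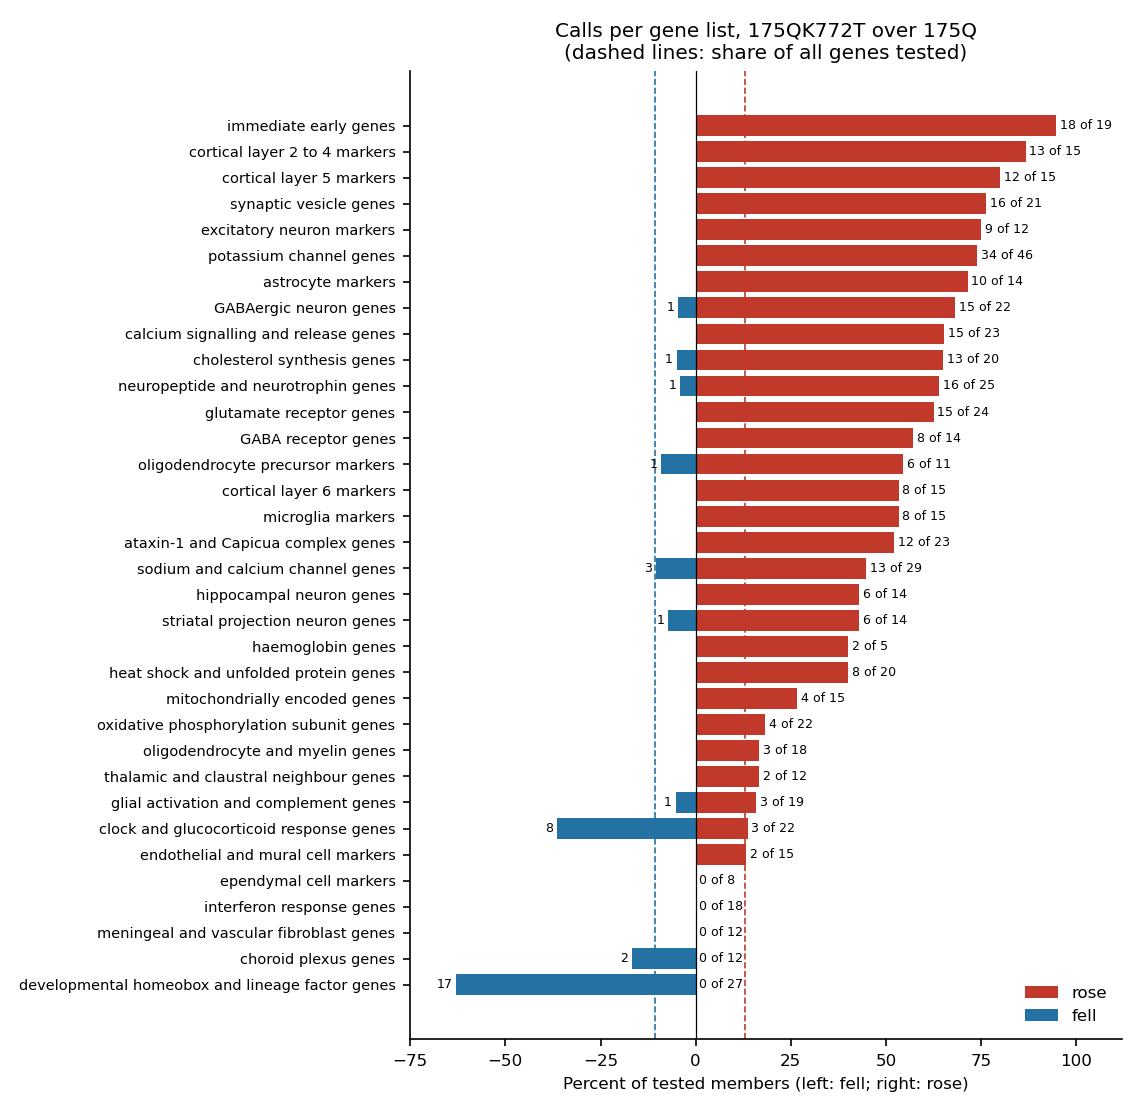
Percent of tested members of each of the 34 gene lists that rose (right, red, with counts) or fell (left, blue) in 175QK772T against 175Q. Dashed lines mark the share of all genes tested, 12.9% and 10.6%; immediate early genes lead on the right and developmental factors on the left.

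Genes chosen in other animals gave a measure free of the 26-week values. The 50 genes most firmly lower and the 50 most firmly higher in 10-week 175Q than WT cortex, where 7936 of 20748 genes passed (38.2%), were averaged as log2 CPM in each 26-week mouse. The lower genes stood at 5.71, 5.74, 5.599 and 5.67 in 175QK772T, 5.00, 5.00, 5.19 and 5.07 in 175Q and 6.88 to 6.94 in WT. The difference was 0.61 (exact permutation test over 70 assignments, two-sided, p = 0.0286, the smallest it can give). The higher genes stood at 6.17, 6.21, 6.21 and 6.19 in 175QK772T, 6.32, 6.31, 6.35 and 6.35 in 175Q and 5.05 to 5.07 in WT, a difference of -0.14 (p = 0.0286 in the same exact permutation test). Every 175QK772T mouse lay on the WT side of every 175Q mouse for both sets. The mean moved 33.1% of the distance from 175Q to WT for the lower genes and 10.9% for the higher genes; these shares have no test of their own.

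Gene by gene the 10-week 175Q change and the 26-week difference ran against each other, with no library in common. Of 4691 genes called here and tested at both ages, 3067 were also among the 7770 called between 10-week 175Q and WT (65.4% and 39.5% of the lists), and 2864 of these had opposite signs. The correlation of the log2 fold changes was -0.37 over 19753 genes, which are not independent replicates.

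In the cortex of 10-week mice the same comparison called 217 of 20748 genes (1.05%), 157 higher (0.757%) and 60 lower (0.289%). Of the 215 tested at both ages 156 were also called at 26 weeks (72.6% of the 10-week list, 3.33% of the 26-week list), 152 of them in the same direction. Those higher at both ages numbered 124, with a median log2 fold change of 0.25 at 10 and 0.44 at 26 weeks. The 4 genes of opposite direction were Basp1, Prdm8, Ciart and the choroid plexus gene Kcne2; Ciart, a clock-regulated repressor, was at 0.45 ± 0.10 at 10 and -0.89 ± 0.15 at 26 weeks.

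The change between ages was tested as an interaction. The 175QK772T minus 175Q difference itself differed for 1566 of 22523 genes (6.95%): it was higher at 26 weeks for 1141 and lower for 425. With WT replicate 1 in the fit, 80 passed. Of the 40 genes named first (Atxn1, the largest rises and falls and the smallest p), 33 were tested at 10 weeks, and in 23 of the 40 the interaction passed. Because they were chosen for large or firm changes at 26 weeks, smaller values elsewhere are favoured by the choice. Rgs4 was at 0.12 at 10 weeks and 1.124 at 26 weeks, and Cck at 0.09 and 1.00. Tnfrsf25 was called at both ages (0.86 ± 0.18 at 10 weeks), and its interaction did not pass. The other 4 of the 40 called at 10 weeks were Epop, Camk2n1, Rph3a and Camkk2, and in each the interaction passed. The ages were sequenced as separate batches and each difference lies within its batch.

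In hippocampus and striatum of the same 26-week mice, 3107 of 19809 (15.7%) and 2674 of 19692 genes (13.6%) passed the same comparison. Genes higher in 175QK772T were 8.88% of those tested in hippocampus and 7.28% in striatum, and genes lower were 6.8% and 6.3%. These regions share their mice with the cortex, so their values are given side by side. The striatum libraries varied widely in cortical and striatal markers (Slc17a7 at 27.49 to 540 CPM, Drd1 at 27.69 to 91.07) and the hippocampus libraries in Ttr (19.03 to 7496 CPM), and the part of this in the values was not tested. Lamp5 was at 1.20 in cortex, 0.79 in hippocampus and 1.01 in striatum, Camk2n1 at 0.83, 0.47 and 1.247, and Nptx2 at 1.48, 1.13 and 2.103. Hoxa7 was at -1.41, -1.64 and -0.93. Hoxd8 and Hoxd9 were at -1.84 and -2.37 in hippocampus but 0.38 and 0.40 in striatum, where they did not pass.

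The difference between regions, tested within mice, passed for 8 of 20263 genes between cortex and hippocampus (0.0395%; 1286 at an unadjusted p under 0.05; 6 higher in cortex, 0.0296%, and 2 lower, 0.00987%) and 1 of 20112 between cortex and striatum (0.00497%; 1111 at an unadjusted p under 0.05). DESeq2 called 57 and 76. The 8 counts ranged from 3 to 24 when 1 mouse was left out, the most without 175Q replicate 4. Larger rises in cortex than in hippocampus were found for Arpp19 (0.90 against 0.25), Rgs4 (1.124 against 0.58), the neurite factor Nrn1 (0.82 against 0.30) and Ighm (0.97 against 0.14). Barx1 and En2, homeobox genes, fell less in cortex (-0.37 and -0.60) than in hippocampus (-1.57 and -1.42), and Lhx9 fell in cortex (-0.98) and was at -0.04 in hippocampus. Tmem255a fell in cortex (-0.50) and was at 0.35 in hippocampus, where it did not pass. The single gene between cortex and striatum was Dsp, desmoplakin, at -0.40 in cortex, where it did not pass, and 1.78 in striatum, and in 5 of 8 fits that left out a mouse no gene passed.

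**Figure D5:**
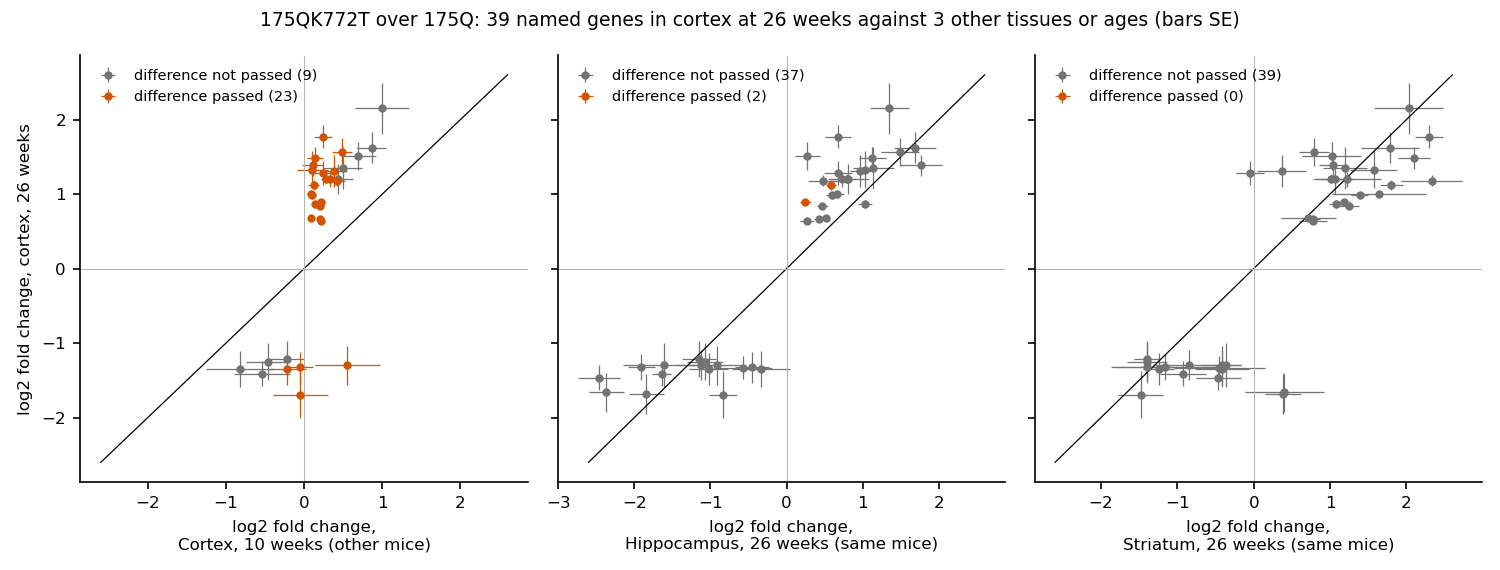
Log2 fold change ± SE of 175QK772T over 175Q in cortex at 26 weeks against cortex at 10 weeks (32 genes tested there), hippocampus and striatum at 26 weeks (39 genes each), for the named largest rises, falls and smallest p; the line marks equal change. Orange points passed the test of the difference, 23 at 10 weeks, 2 in hippocampus and 0 in striatum.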

How the data were processed

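Polyadenylated RNA was sequenced as 150-nt read pairs. Per the submitters' processing notes, the authors used bcl2fastq 2.20.0, Trimmomatic 0.33, HISAT2 2.1.0 with GRCm38 and featureCounts of Subread 1.6.2. The deposited values are raw read counts per gene, with no normalization. The 10-week table records, per the file headers, Ensembl release 97, a minimum mapping quality of 10 and stranded counting; for the 26-week counts these settings are not given in the sources used here. The labels were used for genotype; the descriptions of every 26-week mutant library name 154Q or 154QKT, and the titles and genotype field, which name 175Q and 175QK772T, were followed.

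Counts were scaled by TMM and tested with edgeR 4.0.16 (R 4.3.3, limma 3.58.1) by quasi-likelihood, after edgeR's default expression filter, with genotype and sex as terms, over 11 libraries (4 175QK772T, 4 175Q, 3 WT). Genes were called at a Benjamini-Hochberg adjusted p under 0.05 over all genes tested. Fold changes are 175QK772T over 175Q, errors are SE, and CPM are TMM-scaled. Differences between ages and regions were tested as interactions, with terms for the mouse between regions. Depth was 28.03 to 48.51 M counts per mutant library, and p-values measure the spread between mice. DESeq2 1.42.0, RLE scaling, other filters, terms and library sets were alternatives. The scripts were tested on simulated data.

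The members and gene lists were chosen with earlier results of these data known, and 616 of 629 list entries were tested. Named are Atxn1, the 15 largest rises and 15 largest falls among called genes of at least 1 CPM whose groups do not overlap, the 10 smallest adjusted p, and up to 4 called members per list of smallest adjusted p, leaving out Y-linked, Xist and unnamed gene models. Any other gene was chosen after its values were seen. Same-numbered mice of the 2 mutant genotypes are different animals of opposite sex, so numbers were not treated as pairs. They deviated in opposite directions (r of -0.14, -0.34, -0.43 and -0.33 over 15510 genes). The sign of r followed sex, as mutant mice of the same sex had r of 0.21 to 0.46, so r does not bear on pairing. No libraries of a group agreed within sampling noise. A few genes that the naming rule would take are not reported here.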

Additional observations from a re-analysis of the deposited data

Results flagged for a closer look

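A mouse stood apart from the other 3 of its group in 14 of 292 sets of gene and group (4.79%), by a gap to the nearest other mouse above Dixon's critical value for the range of the group. Chance alone marks about 1 in 20 groups, but these genes were chosen for small p or for groups that do not overlap, so that share is no reference for them. In 175Q these were Arc in replicate 4 (53.4 CPM), Hoxa7 in replicate 4 (6.57), Hoxb9 in replicate 1 (4.85), Kcne2 in replicate 1 (2.41), Grin2c in replicate 3 (38) and Cox5a in replicate 1 (84.3). In 175QK772T they were Gpr50 in replicate 4 (2.16 CPM), Col5a1 in replicate 4 (55.8), Csf1r in replicate 3 (110.9), Gabbr1 in replicate 3 (693), Cacna1i in replicate 2 (101.9), Stx1a in replicate 1 (282), Unc13a in replicate 2 (525) and Lpl in replicate 3 (9.09). Ttr stood apart in 175Q replicate 1 (607 CPM) and in WT replicate 1 (2568 CPM).

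The 175QK772T minus 175Q change differed between the ages, by the interaction test, for 23 of the genes of largest change or smallest p. As log2 change at 26 weeks minus that at 10 weeks, the genes given here that rose were at 1.54 (Ier5l), 1.35 (Nptx2), 1.28 (Ankrd63), 1.23 (Fosl2), 1.09 (Cox6a2), 1.05 (Cbln4), 1.01 (Rgs4), 0.93 (Lamp5), 0.92 (Cck), 0.89 (Inka2), 0.87 (Epop), 0.77 (Robo3), 0.73 (Ddn), 0.69 (Arpp19), 0.63 (Camk2n1), 0.60 (Olfm1), 0.47 (Camkk2) and 0.43 (Rph3a). Genes that fell were at -1.89 (Slc6a5), -1.64 (Aire), -1.26 (Ccer2) and -1.12 (Asf1b). Against hippocampus at 26 weeks, the change was larger in cortex by 0.66 for Arpp19 and 0.56 for Rgs4.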

How the results depend on the processing

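With WT replicate 1 in the fit, genes called fell from 4738 to 688, named genes called from 142 to 51 and the differences between ages from 1566 to 80. Median log2 fold changes moved little for the immediate early genes (1.01 to 1.03), the excitatory markers (0.41 in both fits) and the developmental factors (-0.67 to -0.70). Requiring a change of at least 1.5-fold left 767 genes. The count stayed within 1.5 times under DESeq2 (4971), RLE scaling (4708), no filter on low counts (4891), no sex term (4109) and the mutants alone (4961). Leaving out 1 library gave 3554 to 4869 genes, 127 to 142 named genes and 1080 to 1559 differences between ages; 20 named genes lost their call in at least 1 of these fits, and no named gene changed sign in any alternative. The counts of differences between regions moved by the largest ratios. With no filter on low counts, 242 genes differed between cortex and hippocampus and 71 between cortex and striatum, and DESeq2 gave 57 and 76. Leaving out 1 mouse gave 3 to 24 and 0 to 19 genes, the most without 175Q replicate 4 and 175QK772T replicate 4. The levels of the genes chosen at 10 weeks gave differences of -0.13 to -0.16 and 0.59 to 0.66 over the alternatives; the exact p is at its smallest possible value throughout and says nothing about stability. Causes were not tested.

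With the replicate number as a block, 4958 genes were called, and 141 of the 142 named genes. Same-numbered mutant mice are different animals of opposite sex, so the block is not a pairing of animals. At 28.03 M counts in the shallowest library, genes near 1 CPM rest on few reads, and 4 mice a group limit the precision of every fold change.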
